A study of Mus musculus with 241 samples.

Results

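Interleukin-12 is a secreted cytokine of 2 protein chains, and its receptor also has 2 chains. The RNAs for 3 of these 4 chains are described here across early thymic T-cell precursors: Il12a, encoding the alpha (p35) chain of the cytokine, and Il12rb1 and Il12rb2, encoding the receptor chains. They were found by gene symbol, 3 of 24506 genes in the bulk table, 3 of 43346 in the C1 table and 3 of 27998 in the droplet tables. They were chosen by their own levels in these samples, Il12a being lower and Il12rb2 higher in DN2a cells than in early T-cell progenitors (ETPs). Their ETP and DN2a levels are given as a description, with no test.

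The alpha chain is secreted as IL-12 when it is joined to the beta chain encoded by Il12b, and dendritic cells and macrophages are its best known source. The same alpha chain can pair with the product of Ebi3, a combination named IL-35. The beta 1 receptor chain carries the kinase TYK2 and is shared with the receptor of IL-23, while the beta 2 chain carries JAK2 and the docking site for STAT4. In mature T cells and natural killer cells this pathway is known for inducing interferon gamma.

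All samples were thymocytes of C57BL/6 mice sorted as negative for lineage markers and the dead-cell dye 7AAD and positive for CD44 and Kit. The 12 bulk libraries came from Bcl11b yfp/yfp mice, in which both copies of Bcl11b, a transcription factor gene switched on at T-lineage commitment, carry a yellow fluorescent reporter. The sorted populations were CD25- Flt3+ ETP (2 libraries), undivided CD25- cells called total ETP (2 libraries), CD25- Flt3- ETP (2 libraries), CD25+ YFP- cells called Bcl11b- DN2a (3 libraries) and CD25+ YFP+ cells called Bcl11b+ DN2a (3 libraries). The whole Kit+ CD44+ gate of wild-type mice was also profiled cell by cell, in 2 droplet (10x) libraries and as full-length libraries of cells caught on a C1 microfluidic chip. In each population except total ETP, 1 bulk library was made from amplified cDNA with the SMART-Seq v4 kit and the others with the NEBNext Ultra kit. The labels tie no library to a mouse, so the spread between libraries may be technical.

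Bulk depth lay between 21206645 and 38537103 reads, worked back from the FPKM values (fragments per kilobase of gene model, scaled to library depth). Droplet library 1 had 43734920 UMIs, the tags that mark single captured RNA molecules, over 5006 barcodes. Library 2 had 55522900 UMIs over 8867 barcodes, and 57 barcode sequences occurred in both. The gate genes followed the sorts: Il2ra, encoding CD25, lay between 183.6 and 300.8 FPKM in DN2a libraries and between 1.02 and 18.4 FPKM in ETP libraries. The first-series Flt3+ and Flt3- ETP libraries (replicate 1 of each) stood apart from the other ETP libraries. They held Bcl11b at 5.77 and 4.54 FPKM and the T-cell receptor component Cd3g at 52.5 and 39.9 FPKM, against at most 0.167 and 5.42 FPKM in the other 4 ETP libraries. The first-series Bcl11b- DN2a library (replicate 1) was also high for both, with Bcl11b at 6.11 FPKM and Cd3g at 19.8 FPKM, against 0.596 and 3.08 FPKM and 4.77 and 0.801 FPKM in the other Bcl11b- libraries (SMART-Seq, then NEBNext).

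The genes lie on 3 chromosomes. In the deposited table (mm10), the Il12a model spans chromosome 3, 68691424 to 68698550, plus strand, with 1266 bases of exon. The Il12rb1 model spans chromosome 8, 70808449 to 70821423, plus strand, with 2854 bases of exon. The Il12rb2 model spans chromosome 6, 67292018 to 67339694, minus strand, with 1888 bases of exon. The RefSeq gene of Il12rb2 spans 67285986 to 67376293, further at both ends, so the counted model covers only part of it. Any exon between 67339694 and 67376293, or between 67285986 and 67292018, lies outside the model. The RefSeq gene of Il12rb1 spans 70808360 to 70823542, also beyond its model at both ends.

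RefSeq (GRCm38.p6) lists 2 start windows for Il12a and 1 for Il12rb2. All of them are shown, and Il12rb1 had no window in the set. The bulk model of Il12a begins at the downstream start. Each window runs from 250 bases before to 50 bases after a start, on the strand of the gene, and capitals mark motif matches.
Il12a upstream start, chr3:68690394-68690693, plus strand: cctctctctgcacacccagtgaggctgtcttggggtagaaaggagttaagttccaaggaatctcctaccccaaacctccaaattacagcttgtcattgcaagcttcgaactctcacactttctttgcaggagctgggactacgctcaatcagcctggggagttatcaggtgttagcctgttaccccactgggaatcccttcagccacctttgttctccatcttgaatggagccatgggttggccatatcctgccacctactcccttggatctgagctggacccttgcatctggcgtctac
Il12a downstream start, chr3:68691174-68691473, plus strand: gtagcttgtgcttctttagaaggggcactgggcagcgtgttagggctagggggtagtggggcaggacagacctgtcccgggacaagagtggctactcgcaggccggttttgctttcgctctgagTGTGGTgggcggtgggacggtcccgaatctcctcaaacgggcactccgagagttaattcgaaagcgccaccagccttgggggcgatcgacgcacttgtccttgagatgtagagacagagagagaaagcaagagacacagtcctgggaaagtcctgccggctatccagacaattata
Il12rb2, chr6:67376139-67376438, minus strand: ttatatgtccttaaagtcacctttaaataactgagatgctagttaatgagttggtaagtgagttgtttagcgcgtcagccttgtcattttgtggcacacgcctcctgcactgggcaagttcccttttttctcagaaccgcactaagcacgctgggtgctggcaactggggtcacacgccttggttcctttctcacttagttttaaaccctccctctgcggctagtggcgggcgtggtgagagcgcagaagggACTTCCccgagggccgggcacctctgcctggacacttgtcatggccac

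Short cores of 5 motif families were searched on both strands: GGAAGT (ETS), TGTGGT (Runx), CTTTGA (TCF and LEF), AGATAA (the zinc-finger GATA family) and GGGACTTT (NF-kB). The downstream Il12a window held 1 match, the Runx core upstream of the start. The Il12rb2 window held 1 match, the ETS core on the opposite strand just past the start that the window is set on. That start lies downstream of 67376293, the outer end of the RefSeq gene. The upstream Il12a window held none, and no matches overlapped. Of all 32851 RefSeq windows of this length, 16.8% held the Runx core, 23.8% the ETS core, 16% the TCF and LEF core, 11.2% the GATA core and 1.38% the NF-kB core. The GC content was 52% and 57% in the upstream and downstream Il12a windows and 53% in the Il12rb2 window, against a median of 52.7% over all windows.

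Il12a was higher in the ETP libraries than in the DN2a libraries. It measured 15.6 and 78.4 FPKM in Flt3+ ETP (NEBNext, then SMART-Seq), 14.6 and 12.6 FPKM in undivided total ETP (both NEBNext) and 9.80 and 46.5 FPKM in Flt3- ETP (NEBNext, then SMART-Seq). In Bcl11b- DN2a it measured 1.12, 1.84 and 5.80 FPKM and in Bcl11b+ DN2a 2.09, 1.46 and 3.87 FPKM, the SMART-Seq library last in each. The highest DN2a library was thus below the lowest ETP library, across both kits. These values rest on 63 to 325 recovered reads in DN2a libraries and 471 to 4836 in ETP libraries. In bulk RNA, fewer cells with the transcript and less transcript per cell cannot be told apart.

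Il12rb2 had the opposite profile. In the same library order it measured 7.45 and 11.6 FPKM in Flt3+ ETP. The total ETP libraries had 9.24 and 9.55 FPKM, and the Flt3- ETP libraries 2.76 and 12.4 FPKM. It measured 18.5, 19.04 and 25.5 FPKM in Bcl11b- DN2a and 21.4, 22.9 and 30.0 FPKM in Bcl11b+ DN2a. Every DN2a library was above every ETP library, and the lowest ETP value belonged to the first-series Flt3- library. As for Il12a, the choice of the genes fixes this direction, and the share of all genes with such a split was not counted.

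Il12rb1, the shared receptor chain, had overlapping levels in DN2a and ETP libraries. Flt3+ ETP had 7.09 and 2.11 FPKM, total ETP 5.10 and 4.38 FPKM and Flt3- ETP 5.54 and 1.62 FPKM. It measured 7.83, 7.93 and 2.27 FPKM in Bcl11b- DN2a and 6.89, 6.15 and 1.56 FPKM in Bcl11b+ DN2a. The lowest library of each sorted population with a SMART-Seq library was that library. FPKM is per length of the gene model, but a model may lack exons, so levels of different genes compare only roughly. Among NEBNext libraries, Il12rb1 was below Il12rb2 in each DN2a and total ETP library. It was near Il12rb2 in the NEBNext Flt3+ library and above it in the NEBNext Flt3- library. Among SMART-Seq libraries it was below Il12rb2 in each, at 2.11 against 11.6 FPKM in Flt3+ and 1.62 against 12.4 FPKM in Flt3- ETP. The order of these genes in Flt3- ETP thus depended on the kit.

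All 3 genes differed between the kits. With the populations accounted for, SMART-Seq minus NEBNext was 1.60 ± 0.21 (SE) for Il12a, -1.43 ± 0.11 for Il12rb1 and 0.76 ± 0.19 for Il12rb2 on the log2(FPKM + 1) scale. The 4 SMART-Seq libraries also form a library-number series of their own, so kit and series cannot be told apart. The fits carried the kit as a term, and levels are best compared within a kit.

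**Figure D1:**
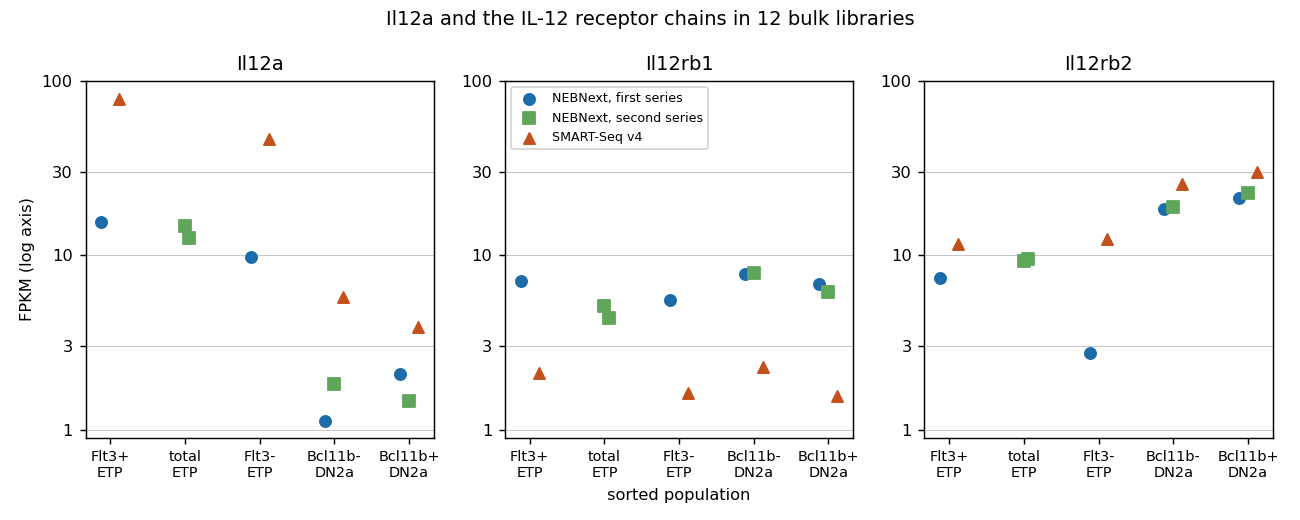
FPKM of Il12a, Il12rb1 and Il12rb2 (log axis) in each of the 12 bulk libraries by sorted population; each point is 1 library and its shape and colour give the kit and, for NEBNext, the library-number series. Il12a lies at 5.80 FPKM or less in every DN2a library and at 9.80 FPKM or more in every ETP library, while Il12rb2 lies at 18.5 FPKM or more in every DN2a library and at 12.4 FPKM or less in every ETP library.

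The fitted sizes of these differences were as follows. In Bcl11b- DN2a minus Flt3- ETP, Il12a stood at -2.45 ± 0.29 (SE), Il12rb2 at 1.74 ± 0.27 and Il12rb1 at 0.38 ± 0.15 on the log2(FPKM + 1) scale (3 libraries against 2). In Bcl11b- DN2a minus total ETP, Il12a stood at -2.61 ± 0.30, Il12rb2 at 0.81 ± 0.27 and Il12rb1 at 0.63 ± 0.15 (3 libraries against 2). For Il12a and Il12rb2 the DN2a and ETP libraries did not overlap. The rule that chose these genes fixes the direction, and the share of all genes without such overlap was not counted. For scale, limma called 3.97% of 12112 tested genes in the first of these comparisons (1.62% higher and 2.35% lower) and 15.6% in the second (9.78% higher and 5.87% lower), at an adjusted p under 0.05. The size for Il12rb2 against Flt3- ETP rested on the first-series Flt3- library: it was 1.01 ± 0.15 without it and 2.38 ± 0.14 without the SMART-Seq Flt3- library. Each of these leaves 1 Flt3- library, which is then assumed to vary like the other groups. Without the first-series Bcl11b- library, Il12a stood at -2.37 against Flt3- and -2.51 against total ETP, and Il12rb2 at 1.70 and 0.76. Both comparisons share the Bcl11b- DN2a libraries. The total ETP libraries were both of the second NEBNext series, which holds 1 of the Bcl11b- libraries, and the fit had no series term. Population and series are thus partly mixed in the comparison with total ETP.

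Marker lists of these and other cells were summed in the same libraries. Progenitor markers were, like Il12a, lower in every DN2a library than in every ETP library, while the 6 DN2a markers, which include the sort gene Il2ra, were higher (564.1 to 850.2 FPKM in DN2a libraries and 67.6 to 188.5 FPKM in ETP libraries). The ranges of the other lists overlapped. The summed level of all 13 dendritic cell and macrophage markers was 10.6 to 41.5 FPKM in DN2a libraries and 28.9 to 75.4 FPKM in ETP libraries, with 1 to 4 of the 13 at 0. Of the defining dendritic cell markers, Clec9a was at most 0.008 FPKM and Xcr1 at most 0.076 FPKM in any library. Zbtb46 was low too, at 0.08 to 0.992 FPKM in ETP libraries and at most 0.034 FPKM in DN2a libraries. Csf1r, also without overlap, was 4.01 FPKM or more in ETP libraries and at most 2.445 FPKM in DN2a libraries. The other members of this list overlapped. Among them, Cd74 was 15.4 and 31.3 FPKM in Flt3+ ETP against 0.332 to 4.25 FPKM in DN2a libraries. Itgax was instead highest in a Bcl11b- DN2a library, at 15.1 FPKM. The 7 progenitor markers summed to 57.1 to 212.3 FPKM in DN2a libraries and 259.3 to 710.6 FPKM in ETP libraries. The 9 myeloid markers, such as Elane and Mpo, summed to 11.1 to 183.3 FPKM in DN2a libraries and 178.8 to 1703 FPKM in ETP libraries. Mast cell and basophil markers ran the other way, at 100.9 to 897.6 FPKM in DN2a libraries and 9.49 to 263.1 FPKM in ETP libraries. The 9 markers of committed T cells summed to 102.7 to 425.9 FPKM in DN2a libraries and 54.1 to 224.997 FPKM in ETP libraries. Natural killer and innate lymphoid markers (77.4 to 438.0 FPKM in DN2a and 91.3 to 708.8 FPKM in ETP), B-cell markers (11.8 to 41.5 and 10.7 to 45.4 FPKM) and erythroid markers (0.110 to 6.51 and 0.161 to 15.1 FPKM) had wide ranges in both. The part of any of these cells in the bulk levels was not tested.

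Flt3- ETP were compared with Flt3+ ETP to ask whether the genes differ within the ETP stage, a comparison that the choice of genes did not use. None of the 3 passed the test, where limma called 83 of 12112 genes or 0.685% (0.421% higher and 0.264% lower). Il12a averaged 28.1 ± 25.9 FPKM in Flt3- ETP and 46.97 ± 44.4 FPKM in Flt3+ ETP (SD, n = 2 each, 1 library per kit), and was lower in Flt3- ETP within each kit. Its fitted difference was -0.68 ± 0.32 (SE) with a 95% interval of -1.38 to 0.02 (limma adjusted p = 0.296). Il12rb1 was also lower in Flt3- ETP within each kit, with a fitted difference of -0.28 ± 0.16 and an interval of -0.63 to 0.08 (adjusted p = 0.380, limma).

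Il12rb2 went in opposite directions in the 2 kits. It was 2.76 against 7.45 FPKM in the NEBNext pair and 12.4 against 11.6 FPKM in the SMART-Seq pair, Flt3- first, and the fitted difference was -0.54 ± 0.29 (limma adjusted p = 0.350). Each Flt3- library decided this value: it was -1.23 ± 0.15 and passed the test without the SMART-Seq one (adjusted p = 0.00815), and 0.15 ± 0.15 without the first-series one (adjusted p = 0.999). In both cases 1 Flt3- library is left, its spread taken from the other groups, and in the first that library is the one that stood apart. Without both first-series ETP libraries, an alternative chosen after seeing the data, it was 0.09 ± 0.15. Over all alternatives the adjusted p ran between 0.00815 and 1.

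Bcl11b+ DN2a were compared with Bcl11b- DN2a to ask whether the genes differ around commitment, again a comparison outside the choice of genes. None of the 3 passed the test, where limma called 338 genes or 2.79% (1.15% higher and 1.64% lower), and 850 with the replicate number as a block. Il12a averaged 2.48 ± 1.249 FPKM in Bcl11b+ DN2a and 2.92 ± 2.52 FPKM in Bcl11b- DN2a (SD, n = 3 each), a fitted difference of -0.05 ± 0.26 (SE, limma adjusted p = 0.999). It was higher in the Bcl11b+ library in the first series and lower in the second series and in SMART-Seq. Il12rb1 averaged 4.87 ± 2.89 FPKM and 6.01 ± 3.24 FPKM, Bcl11b+ first, and was lower in Bcl11b+ in all 3 library pairs (-0.28 ± 0.13, 95% interval -0.57 to 0.01, limma adjusted p = 0.457). Il12rb2 averaged 24.7 ± 4.57 FPKM and 21.01 ± 3.92 FPKM, Bcl11b+ first, and was higher in Bcl11b+ in all 3 pairs (0.23 ± 0.24, 95% interval -0.29 to 0.74, limma adjusted p = 0.940). The intervals leave room for differences of either sign. Without the first-series Bcl11b- library the differences were -0.14, -0.28 and 0.28 in this order of genes, with adjusted p of at least 0.837 by limma. This comparison shares the Bcl11b- DN2a libraries with those of DN2a and ETP.

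Over the 12 libraries, with kit means removed, log2(FPKM + 1) of Il12a and Il12rb2 had a Pearson r of -0.81, a sign that the choice of these genes on the same libraries fixes. The value was -0.40 for Il12a with Il12rb1 and 0.39 for Il12rb1 with Il12rb2, and all rest on libraries of the same 5 populations. By the same measure among 12112 genes, the profiles most like Il12a were Gm6455, 4933402N22Rik, Nucb2, Gm5861 and Sh2d5 (r 0.989 to 0.991). Those most like Il12rb2 were Acat1, Dbr1, Bace1, Runx1 and Npc1 (r 0.976 to 0.983), and those most like Il12rb1 were Dusp5, Actg1, Capn15, E130309D02Rik and Flywch1 (r 0.935 to 0.962).

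The partners of the alpha chain were measured next. Il12b, the beta chain that completes IL-12, was listed at 0 in 8 of the 12 bulk libraries and reached 0.526 FPKM, and the 4 libraries above 0, with 24 to 56 recovered reads, were the first-series ones. No Il12b UMI was found in 4878 and 8434 kept droplet cells, which allows a share of cells with a UMI of up to 0.0615% and 0.0356%. No C1 cell held Il12b above 1 FPKM. Ebi3, the partner of the alpha chain in IL-35, was present throughout. Flt3+ ETP had 16.6 and 23.3 FPKM, total ETP 13.8 and 10.5 FPKM and Flt3- ETP 18.9 and 17.8 FPKM. It measured 10.99, 11.01 and 14.7 FPKM in Bcl11b- DN2a and 4.86, 4.12 and 5.67 FPKM in Bcl11b+ DN2a.

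Ebi3 fell in Bcl11b+ against Bcl11b- DN2a, by 1.17 ± 0.15 on the log2 scale (limma adjusted p = 0.00181, lower in 3 of 3 library pairs). It was 1 of 3 tested genes among the 6 other ligand chains of the family, and it alone passed the test. Of all genes tested, 1.64% were called lower. Clcf1, encoding another heterodimeric cytokine chain, was at -0.54 ± 0.14 (limma adjusted p = 0.0813). The median over the 3 was -0.54, against -0.04 over all genes tested. In Flt3- against Flt3+ ETP none of the 3 passed, and Ebi3 stood at -0.10 ± 0.18 (limma adjusted p = 0.800). In Bcl11b- DN2a against Flt3- and total ETP, Ebi3 did not pass either (-0.52 ± 0.17 and -0.08 ± 0.17, limma adjusted p = 0.108 and 0.750). In the droplet libraries, by the classes of cells described further on, Ebi3 was lowest in Il2ra+ Bcl11b+ cells, at 15.3 and 11.7 CPM, which is UMIs of the gene scaled to a common total for each class, against 39.2 and 24.8 in Il2ra+ Bcl11b- cells.

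Of 3 related receptor chains, Il27ra, part of the IL-27 receptor, and Il6st, encoding the gp130 chain shared by the IL-6 family, were expressed above the filter, and Il23r was at most 0.128 FPKM. Il6st fell in Flt3- ETP, at 7.25 and 2.05 FPKM against 17.1 and 3.88 FPKM in Flt3+ ETP (-0.91 ± 0.17, limma adjusted p = 0.0427, lower in 2 of 2 kits). Of all genes tested there, 0.264% were called lower. The call was lost in 10 of 13 alternatives, where its adjusted p ran up to 1. In Bcl11b- DN2a against total ETP Il6st fell as well (-1.46 ± 0.16, limma adjusted p = 0.000516), where 5.87% of all genes were called lower. Il27ra was at 0.35 ± 0.15 in Bcl11b+ against Bcl11b- DN2a (limma adjusted p = 0.366).

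The signalling genes downstream of the receptor were expressed in every population. Stat4, encoding the factor that IL-12 activates, stood at 17.6 and 42.4 FPKM in Flt3+ ETP. Total ETP had 23.4 and 26.2 FPKM and Flt3- ETP 14.3 and 43.6 FPKM. It measured 16.6, 18.8 and 36.4 FPKM in Bcl11b- DN2a and 17.4, 24.6 and 42.5 FPKM in Bcl11b+ DN2a, with the SMART-Seq libraries high in each. Populations overlapped for Stat4, and no comparison called it (0.22 ± 0.16 in Bcl11b+ against Bcl11b- DN2a, limma adjusted p = 0.788). In droplet cells Stat4 stood between 16.7 and 21.3 CPM in all 4 classes of both libraries. Jak2, encoding the kinase on the beta 2 chain, lay between 4.32 and 15.5 FPKM and Tyk2, encoding the one on the beta 1 chain, between 2.301 and 12.4 FPKM over the 12 libraries.

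All 10 genes of the kinase, STAT and feedback list were tested. None passed in Flt3- against Flt3+ ETP (median -0.24, against -0.15 over all genes). In Bcl11b+ against Bcl11b- DN2a 1 rose and none fell (median 0.01), where 1.15% of all genes were called higher and 1.64% lower. This was Socs2, encoding a feedback inhibitor of cytokine receptors, at 5.95, 9.35 and 23.5 FPKM in Bcl11b+ and 2.50, 2.93 and 9.84 FPKM in Bcl11b- DN2a (1.19 ± 0.22, limma adjusted p = 0.0122). The call was lost in 5 of 15 alternatives, among them no filter on low values (adjusted p = 0.0723, limma), without Bcl11b- replicate 1 (adjusted p = 0.0741, limma) and without Bcl11b+ replicate 3 (adjusted p = 0.0839, limma). In Bcl11b- DN2a against total ETP 5 of the 10 rose and none fell (median 0.50, against -0.0032 over all genes), where 9.78% of all genes were called higher and 5.87% lower. They were Stat3, Socs1, Socs2, Socs3 and Cish, with differences between 0.64 and 1.64. Socs1 was 11.181 to 23.582 FPKM in first-series libraries and 2.445 to 9.985 FPKM in second-series libraries, which include both total ETP libraries. Socs3 was 4.762 to 6.09 and 0.707 to 3.532 FPKM, while Stat3, Socs2 and Cish overlapped between these series. Within the second series all 5 were higher in the Bcl11b- library than in either total ETP library. The part of series in these rises was not tested. All 5 calls were lost without Bcl11b- replicate 1 (limma adjusted p 0.0794 to 0.190), without total ETP replicate 1 (0.0656 to 0.131) and without total ETP replicate 2 (0.179 to 0.316), the last 2 with 1 total ETP library left. Against Flt3- ETP only Stat3 rose (0.89 ± 0.18, limma adjusted p = 0.0181), where 1.62% of all genes were called higher, and this call was lost in 6 of 14 alternatives, among them without Flt3- replicate 1 (adjusted p = 0.348, limma), without Bcl11b- replicate 1 (adjusted p = 0.0734, limma) and without Bcl11b- replicate 2 (adjusted p = 0.0508, limma).

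Genes linked to the IL-12 response of mature T and natural killer cells, among them transcription factor genes such as Ets1 and Runx3, lay between 0 and high levels. Of 20, 14 passed the filter on low values, and the highest was Irf1, encoding an interferon-regulated transcription factor, at 40.9 to 104.2 FPKM. Genes below the filter included Ifng, Tbx21, Eomes and Prf1. Ifng, encoding interferon gamma, was at most 0.424 FPKM and listed at 0 in 8 libraries. Tbx21, encoding the T-helper 1 factor T-bet, was at most 0.516 FPKM. No Ifng UMI was found in either droplet library, and Tbx21 had 0 and 1 UMI.

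Some of the 14 response genes above the filter passed the test. In Bcl11b+ against Bcl11b- DN2a 1 rose and 2 fell (median -0.30, against -0.04 over all genes), where 1.15% of all genes were called higher and 1.64% lower. Lag3, encoding an inhibitory receptor, fell to 2.71, 2.51 and 1.01 FPKM in Bcl11b+ against 11.9, 12.9 and 3.54 FPKM in Bcl11b- DN2a (-1.65 ± 0.18, limma adjusted p = 0.000693). Il18rap, encoding a chain of the IL-18 receptor, fell as well (-1.004 ± 0.19, limma adjusted p = 0.0137), a call lost in 4 of 15 alternatives, among them no filter on low values (adjusted p = 0.0662, limma) and without Bcl11b+ replicate 1 (adjusted p = 0.0539, limma). Ets1, encoding a lymphoid transcription factor, rose to 29.5, 35.4 and 15.7 FPKM in Bcl11b+ against 14.4, 11.9 and 6.31 FPKM in Bcl11b- DN2a (1.22 ± 0.13, limma adjusted p = 0.000463). Without the kit term none of Ebi3, Socs2, Il18rap, Lag3 and Ets1 passed. With the NEBNext libraries alone Lag3 passed, while Ebi3, Socs2, Il18rap and Ets1 had adjusted p of 0.0680, 0.108, 0.123 and 0.0506 by limma.

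In Flt3- against Flt3+ ETP none of the 14 passed (median -0.14, against -0.15 over all genes). Havcr2, encoding the receptor TIM-3, was nearest at -1.58 ± 0.33 (limma adjusted p = 0.0619). Against Flt3- ETP, Bcl11b- DN2a had 3 lower and none higher of the 14, which were Il18rap, Hlx and Cxcr3, where 2.35% of all genes were called lower and 1.62% higher. These calls were lost in 8, 6 and 3 of 14 alternatives in this order, all of them without Flt3- replicate 1 (limma adjusted p 0.137 to 0.320). Against total ETP there were also 3 lower and none higher, which were Il18r1, Il18rap and Havcr2, where 5.87% of all genes were called lower and 9.78% higher. Leaving out any 1 library ended none of these last 3 calls. Il18rap thus stood at 3.91, 6.84 and 1.72 FPKM in Bcl11b- DN2a against 22.2 and 23.3 FPKM in total ETP.

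**Figure D2:**
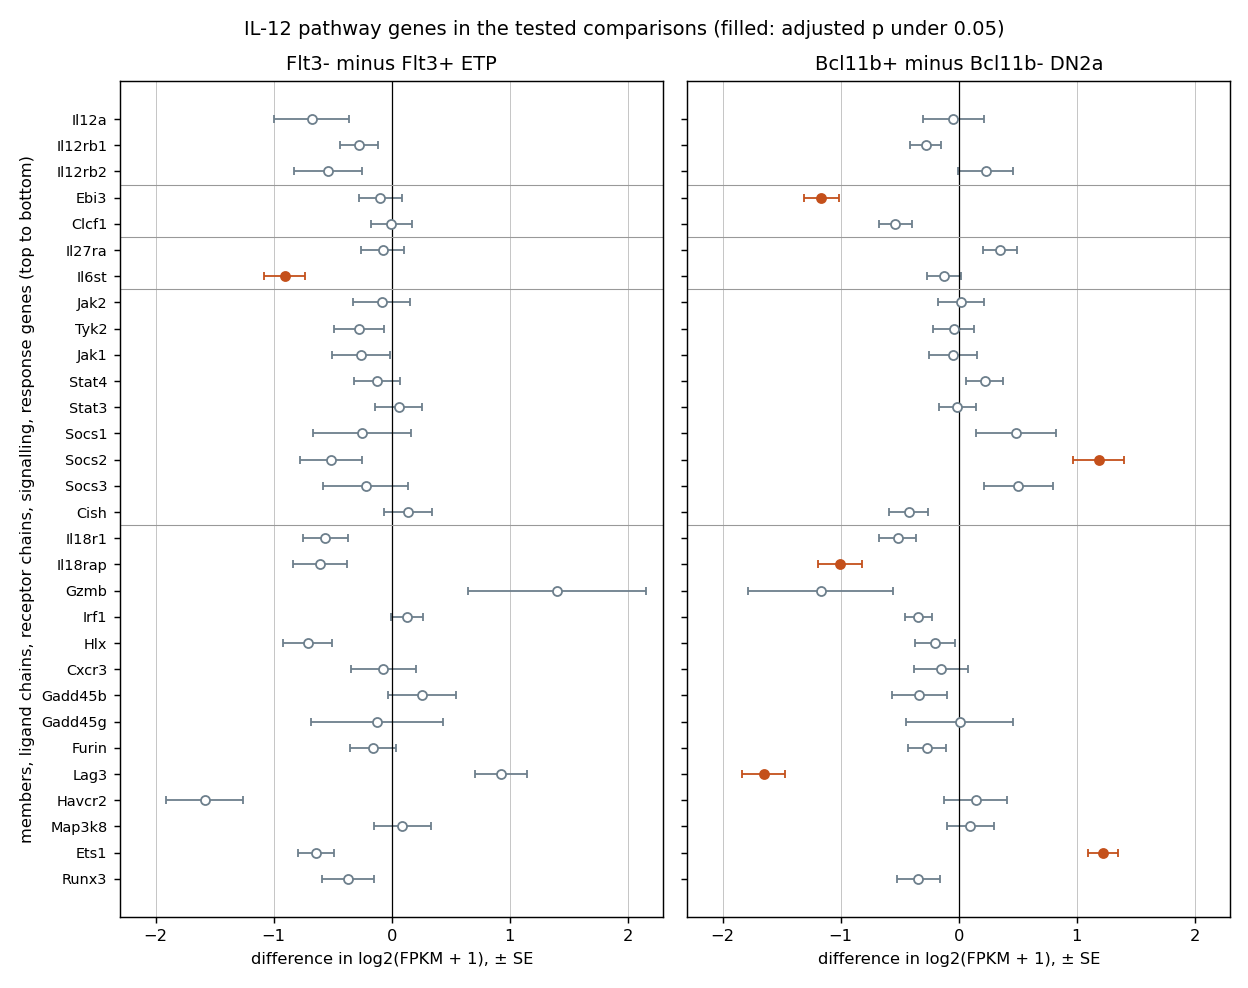
Fitted difference in log2(FPKM + 1) with its SE for the 3 genes and pathway genes of the lists, in Flt3- minus Flt3+ ETP (left) and Bcl11b+ minus Bcl11b- DN2a (right); filled points passed the test. Il12a, Il12rb1 and Il12rb2 are open in both panels, and Il6st on the left and Ebi3, Socs2, Il18rap, Lag3 and Ets1 on the right are filled.

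The droplet libraries were used to describe the genes in wild-type cells that were not sorted on Flt3, CD25 or the reporter. Cells were put in 4 classes by the transcripts of the gate genes: Flt3+ Il2ra-, Flt3- Il2ra-, Il2ra+ Bcl11b- and Il2ra+ Bcl11b+, where positive means at least 1 UMI. They held 447, 1784, 1450 and 1197 cells in library 1 and 634, 3779, 2088 and 1933 in library 2. A cell without a UMI of Flt3, Il2ra or Bcl11b may still express that gene. There are 2 libraries and cells are not replicates, so no test was made, and 95% intervals (exact Poisson for levels, exact binomial for shares) cover counting error only.

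Il12a stepped down over the 4 classes in both libraries. Its summed level was 44.9, 24.9, 7.54 and 3.91 CPM in library 1, with intervals of 38.9 to 51.5, 22.4 to 27.5, 6.13 to 9.18 and 2.83 to 5.26. In library 2 it was 57.4, 34.98, 10.6 and 6.09 CPM, with intervals of 50.7 to 64.8, 32.6 to 37.5, 8.96 to 12.4 and 4.84 to 7.57. No interval overlapped that of a neighbouring class of the same library.

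Il12rb2 stepped up from the first to the third class. It stood at 9.02, 11.8, 19.3 and 26.7 CPM in library 1 and at 9.90, 14.4, 25.4 and 24.5 in library 2. The last step differed between libraries: Bcl11b+ over Bcl11b- within Il2ra+ cells was 1.39 (1.17 to 1.65) in library 1 and 0.964 (0.828 to 1.12) in library 2. Within Il2ra- cells, Flt3- over Flt3+ was 1.31 (0.925 to 1.88) and 1.45 (1.06 to 2.03), where the bulk fit had a negative difference that 1 library decided. With 2 UMIs needed for a positive cell, the library 2 ratio turned round to 0.806, while that of library 1 stayed above 1. The Flt3- Il2ra- class is not the same as sorted Flt3- ETP. In it 8.35% and 12.8% of cells held a Bcl11b UMI, against 0.895% and 1.58% in the Flt3+ Il2ra- class. The part of such cells in the ratio was not tested.

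Il12rb1 was low and flat. It stood at 3.52, 4.84, 5.87 and 5.09 CPM in library 1 and at 5.06, 5.29, 5.60 and 5.72 in library 2, from 220 and 298 UMIs in all. Over Il2ra+ against Il2ra- cells the ratios of level were 0.199 (0.164 to 0.239) and 0.217 (0.188 to 0.251) for Il12a, 1.22 (0.923 to 1.62) and 1.08 (0.852 to 1.36) for Il12rb1, and 2.04 (1.74 to 2.397) and 1.83 (1.61 to 2.09) for Il12rb2. The Il12rb1 intervals span equal levels. These ratios use the contrast that chose the genes, so they are a description only, although the mice and the assay differ from the bulk ones.

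**Figure D3:**
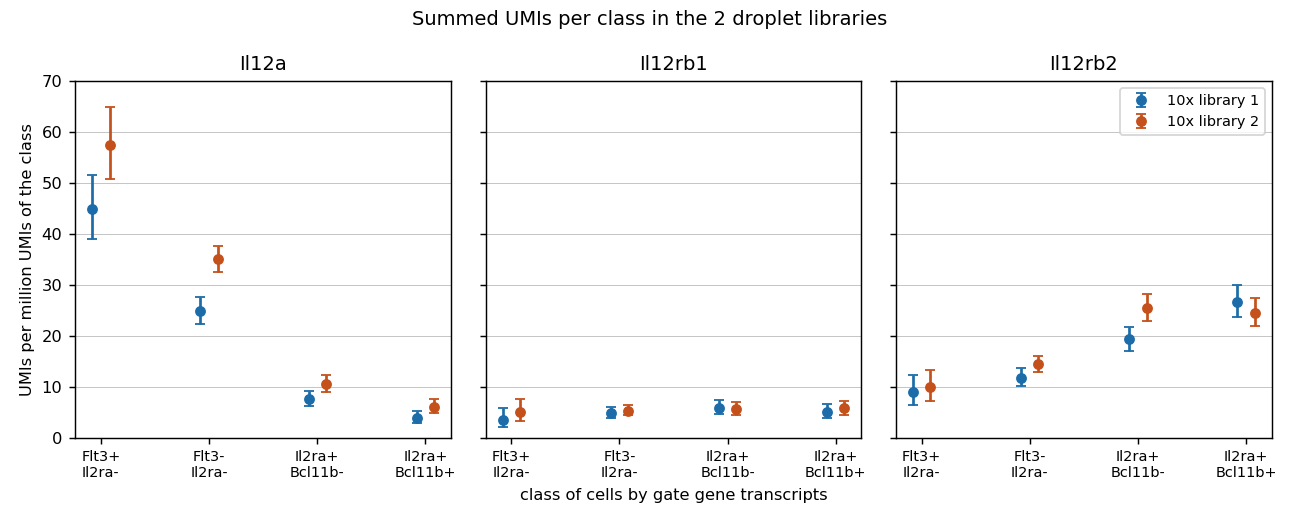
CPM of each class of cells (linear axis) for Il12a, Il12rb1 and Il12rb2 in the 2 droplet libraries; points are library values and bars are exact 95% Poisson intervals. Il12a steps down from 44.9 and 57.4 in Flt3+ Il2ra- cells to 3.91 and 6.09 in Il2ra+ Bcl11b+ cells, Il12rb2 is lowest in Flt3+ Il2ra- cells, and Il12rb1 stays between 3.52 and 5.87.

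Most cells held no UMI of these genes. Il12a was seen in 34.2%, 15.4%, 6.07% and 3.01% of the cells of the 4 classes in library 1 and in 29.2%, 16.8%, 6.27% and 3.41% in library 2. For comparison, 0.328% and 0.645% of the cells of a committed T-like cluster led by Cd3d and Ptcra (cluster 8) held an Il12a UMI, at median depths of 3867 and 3212 UMIs against 9892 and 6710 in the Flt3+ Il2ra- class. With each cell thinned to 4000 UMIs, the shares were 14.1%, 8.26%, 2.89% and 1.32% of 440, 1706, 1418 and 1064 cells in library 1, and 20.9%, 12.6%, 3.68% and 2.296% of 588, 2972, 1850 and 1568 cells in library 2. The order of the classes was the same with and without thinning.

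Il12rb2 was seen in 8.72%, 9.14%, 15.2% and 21.1% of the 4 classes in library 1 and in 6.31%, 8.02%, 15.6% and 14.8% in library 2. Thinned, the shares were 4.55%, 5.28%, 8.32% and 10.3%, and 4.08%, 5.75%, 10.0% and 9.57%. Among positive cells 1 UMI was usual: 441 of 551 and 806 of 1017 Il12a-positive cells and 598 of 675 and 859 of 956 Il12rb2-positive cells held 1, and no cell held more than 5 of either.

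Few cells held UMIs of both Il12a and Il12rb2. There were 63 such cells in library 1 and 90 in library 2, against 76.2 and 115.3 from the product of the 2 shares. Within the classes the counts lay near their products, with 11, 29, 15 and 8 cells against 13.3, 25.03, 13.4 and 7.58 in library 1, and 16, 44, 16 and 14 cells against 11.7, 50.9, 20.5 and 9.80 in library 2. At 1 UMI in most positive cells, the data cannot show whether single cells carry both transcripts more or less often than that.

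The 3 genes were left out of the genes used to cluster the droplet cells, and 14 clusters were found. Il12a was highest in cluster 1, a progenitor-like cluster led by Ccnd1, Hmga2, Siglece and Flt3 with Il12a itself among its 10 leading genes, and in cluster 6, another progenitor-like cluster led by Klrd1 and Car2. Its level was 33.999 and 49.99 CPM in cluster 1 and 33.99 and 59.5 in cluster 6 (library 1, then library 2). Cluster 1 alone held 26.6% and 24.9% of all Il12a UMIs in 11.7% and 10.6% of the cells. Cluster 5, progenitor-like cells led by histone and mitosis genes, had 28.5 and 39.4, and cluster 11, progenitor-like cells led by interferon-stimulated genes, had 29.6 and 34.7.

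Il12a was low in clusters where most cells held Il2ra. Cluster 2, a DN2a-like cluster led by Il7r and Bcl11b, had 5.20 and 7.79 CPM, cluster 3, led by Hbb-bt, Fgf3 and Il2ra and left unnamed, 4.49 and 6.64, and cluster 9, DN2a-like cells led by histone genes, 2.63 and 4.59. The level was lowest in the committed T-like cluster 8, from 1 and 4 UMIs, at 0.796 (0.020 to 4.44) and 1.87 (0.509 to 4.78). The myeloid-like cluster 12, led by Elane and Prtn3, had 11.99 and 11.3 and held 1.13% and 0.392% of the Il12a UMIs.

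Il12rb2 was highest in the DN2a-like cluster 2, with 33.9 and 31.3 CPM. Clusters 0, 3 and 9 followed with 21.99 to 26.4 over both libraries, and the interval of cluster 9 overlapped that of cluster 2 in both. It was 9.53 and 8.67 in the progenitor-like cluster 1. It was also low in the committed T-like cluster 8, at 7.17 and 6.54, where Il12a was lowest too. Of the cells of the Il2ra+ Bcl11b+ class, 421 and 631 lay in cluster 2 and 236 and 404 in cluster 8, so that class holds cells with high and with low Il12rb2.

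**Figure D4:**
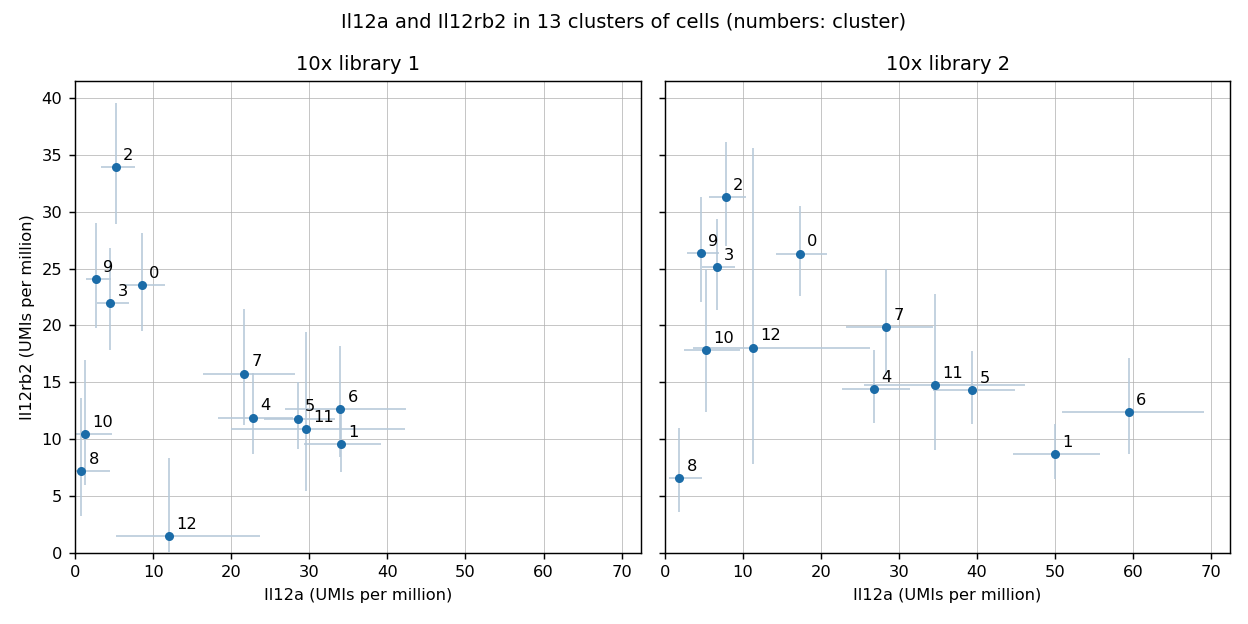
CPM of Il12a (x axis) and Il12rb2 (y axis) in 13 clusters of droplet cells, per library; bars are exact 95% Poisson intervals and numbers name the clusters (cluster 13, with 13 and 53 cells, is not drawn). Clusters 1 and 6 lie at high Il12a, cluster 2 at high Il12rb2 with Il12a of 5.20 and 7.79, and the committed T-like cluster 8 near the origin in both libraries.

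Since dendritic cells and macrophages are known for Il12a, the droplet cells with a UMI of Cd74, H2-Aa, H2-Ab1, Zbtb46, Xcr1, Clec9a, Siglech or Cd209a were examined, a set without the macrophage markers Adgre1, Csf1r, Cd68 and Itgam. These 930 and 879 cells, or 19.1% and 10.4% of the kept cells, held 30.0% and 14.6% of the Il12a UMIs and 23.9% and 10.0% of the Il12rb2 UMIs. Without them, an alternative chosen after seeing the data, the Il2ra+ over Il2ra- ratio of Il12a was 0.184 and 0.2201, and that of Il12rb2 was 1.97 and 1.81.

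Full-length C1 libraries gave a view of single cells by a further method. The kept cells had a median of 4663 genes above 1 FPKM, and the same 4 classes held 66, 33, 94 and 29 cells. The labels name no animals, so these cells count as 1 sample and no test was made. Il12a was above 1 FPKM in 47 of 66 Flt3+ Il2ra- cells (71.2%, exact binomial 95% interval 58.7 to 81.7), 8 of 33 Flt3- Il2ra- cells (24.2%, 11.1 to 42.3), 21 of 94 Il2ra+ Bcl11b- cells (22.3%, 14.4 to 32.1) and 9 of 29 Il2ra+ Bcl11b+ cells (31.03%, 15.3 to 50.8). The Flt3+ cells stood above the other classes, whose intervals overlapped one another.

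The level in positive C1 cells was less distinct. Among cells above 1 FPKM, the median of Il12a was 56.4, 26.2, 36.5 and 14.7 FPKM over the 4 classes, and the highest single cells held 255.0, 126.5, 120.7 and 64.02 FPKM. The mean over all cells was 48.4, 8.64, 10.0 and 7.53 FPKM.

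Il12rb2 was above 1 FPKM in 23 of 66, 10 of 33, 46 of 94 and 18 of 29 C1 cells of the 4 classes, or 34.8%, 30.3%, 48.9% and 62.1%. The mean over all cells was 19.2, 21.8, 39.3 and 62.7 FPKM. Il12rb1 was above 1 FPKM in 2, 0, 5 and 2 cells, too few to compare, and 0 of 33 cells allows a share of up to 9.09%. Stat4 was above 1 FPKM in 50, 21, 68 and 23 cells, or 75.8%, 63.6%, 72.3% and 79.3%, so most cells of each class held it.

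Both transcripts were found in the same C1 cells. Il12a and Il12rb2 were above 1 FPKM together in 15, 3, 13 and 7 cells of the 4 classes, against 16.4, 2.42, 10.3 and 5.59 from the products of their shares. Il12a and Ebi3 were together in 19, 6, 15 and 2 cells, against 18.5, 3.88, 8.49 and 1.24. In Il2ra+ cells as a whole, 17 of the 30 Il12a cells also held Ebi3, against 10.2 from the product, a count given without a test.

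The names of the C1 cells begin with library numbers, which fall into 4 sets by their first 3 digits, a grouping that the labels do not explain. By set, Il12a was above 1 FPKM in 14.3% to 28.3% of Il2ra+ cells and 47.6% to 76.9% of Il2ra- cells, so the ranges did not overlap. Il12rb2 was above 1 FPKM in 42.9% to 70% of Il2ra+ cells and 19.05% to 51.3% of Il2ra- cells, and was the higher in Il2ra+ cells in each set. The smallest set held 7 Il2ra+ and 5 Il2ra- cells.

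**Figure D5:**
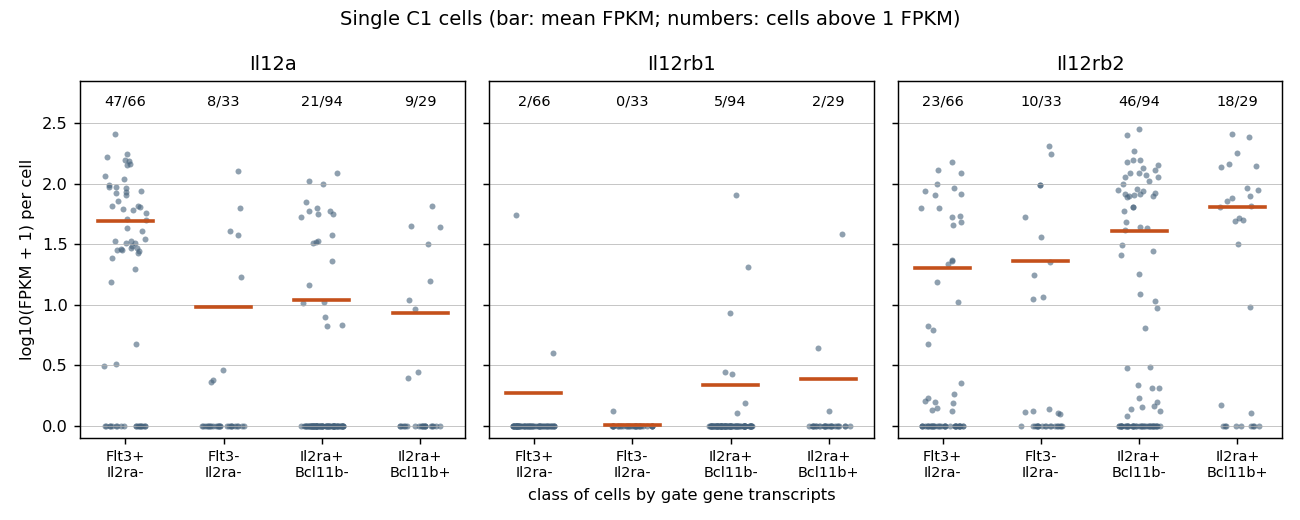
Log10(FPKM + 1) of Il12a, Il12rb1 and Il12rb2 in each kept C1 cell by class; points are cells, spread sideways at random, bars are the mean FPKM on the same scale, and the numbers above give cells above 1 FPKM of all cells. Il12a is above 1 FPKM in 47 of 66 Flt3+ Il2ra- cells and in 9 of 29 Il2ra+ Bcl11b+ cells, Il12rb2 in 23 of 66 and 18 of 29, and Il12rb1 in 9 cells in all classes together.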

How the data were processed

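Bulk values are FPKM that the authors deposited, made with HOMER over exons of RefSeq gene models on mm10, per the file headers; the submitters' processing notes also name STAR 2.4.0, RSEM 1.2.25 and edgeR 3.6.8. C1 values are FPKM that the authors deposited, and 10x values are UMI counts that the authors deposited, with Cell Ranger 2.0 named in the submitters' processing notes. FPKM carries no depth, but 86.3% to 98.6% of bulk values per library were whole reads within 0.1 read of a common step, and those reads were used in an edgeR 4.0.16 alternative.

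Bulk differences were fitted with limma 3.58.1 (R 4.3.3) on log2(FPKM + 1), with population and kit terms over all 12 libraries, for the 12112 of 24506 genes above 1 FPKM in at least 2 libraries, with Benjamini-Hochberg adjustment over all of them and a threshold of 0.05. The 4 SMART-Seq columns were matched to samples by population name. Same-numbered DN2a libraries deviated together (r 0.912, 0.980 and 0.930). They also share kit and library series, which were not removed here, so pairing cannot be told apart from those. The 3 genes and all lists were chosen with earlier results of these data known; pathway genes that passed, and up to 4 per list by smallest p, are named. Some list members are counted but not reported here by name. The fit was tested on simulated data.

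A droplet cell was kept if it had 1000 genes or more and less than 10% of its UMIs from mitochondrial genes, and a C1 cell if it had 1000 genes or more above 1 FPKM. Clusters came from scanpy 1.11.5 (2000 variable genes, 30 components, 20 neighbours, Leiden resolution 1, leidenalg 0.10.2), and no doublet caller was run. Cells of 1 library were summed, since they are not replicates. A count of 0 was given a limit of 3 counts.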

Additional observations from a re-analysis of the deposited data

How the results depend on the processing

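Alternatives to the bulk fit were a pseudocount of 0.1, no filter on low values, no kit term, the NEBNext libraries alone, quantile normalization, replicate and library-series blocks, edgeR on recovered reads, and leaving out each library. Leaving out the first-series ETP libraries, and droplet cells with UMIs of dendritic cell genes, was chosen after seeing the data. Over the bulk differences of the 3 genes, 1 alternative newly passed the test, 15 moved the value by more than the residual spread and 7 turned its direction. The droplet ratios stayed within their intervals in 67 of 72 alternatives and the C1 shares in 18 of 18. The cause of the changes was not tested.

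The share of genes called moved most, given here in percent of all 24506 genes in the table. For Flt3- against Flt3+ ETP (0.339%) it was 0.208% with the smaller pseudocount, 0.0408% without the kit term, 0.0122% with NEBNext alone, 0.224% with quantile normalization, 0.131% without the first-series ETP libraries and 0.0571% to 6.55% leaving out 1 library (the highest without Flt3- replicate 2). For Bcl11b+ against Bcl11b- DN2a (1.38%) it was 0.792% without the filter, 0.0163% without the kit term, 0.175% with NEBNext alone and 0.653% to 1.04% leaving out 1 library. For Bcl11b- DN2a against Flt3- ETP (1.96%) it was 0.143% without the kit term, 4.22% with NEBNext alone, 2.99% with edgeR, 0.779% without the first-series ETP libraries and 0.657% to 10.4% leaving out 1 library (the lowest without Flt3- replicate 1, the highest without Flt3- replicate 2). For Bcl11b- DN2a against total ETP (7.73%) it was 3.26% without the filter, 0.224% without the kit term, 1.36% with NEBNext alone and 0.845% to 11.8% leaving out 1 library (the lowest without total ETP replicate 2, 1.52% without Bcl11b- replicate 1, the highest without Bcl11b- replicate 2). The edgeR fit called 58, 462, 733 and 2065 genes in this order of comparisons. With quantile normalization 90.9% of the calls were higher in Flt3- than in Flt3+ ETP, against 61.4% without it, and 51.3% were higher in Bcl11b- DN2a than in total ETP, against 62.5%. The median log2 change of all genes was -0.0284 with it and -0.145 without in Flt3- against Flt3+ ETP, and 0.0471 and 0.12 in Bcl11b- DN2a against Flt3- ETP.

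With the replicate number as a block the shares were 6.78%, 3.47%, 14.6% and 19.7% in the same order, and with the library series as a block 2.399%, 2.78%, 3.82% and 3.84%. The 2 Flt3 pairs share a number that the labels do not explain. Their r of 0.916 holds the kit difference, since each population had 1 library per kit, and cannot show pairing. The replicate block put Il12a at -1.98 and Il12rb2 at 2.05 in Bcl11b- DN2a against Flt3- ETP, and it changed no call of the 3 genes.

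In Flt3- against Flt3+ ETP, Il12rb2 was 0.0918 without the first-series ETP libraries and -1.23 to 0.15 leaving out 1 library. In Bcl11b+ against Bcl11b- DN2a, Il12a was 0.17 with NEBNext alone, 0.0575 with quantile normalization, 0.0320 with edgeR and -0.27 to 0.32 leaving out 1 library. In Bcl11b- DN2a against Flt3- ETP, Il12a was -2.85 with the smaller pseudocount, -3.03 with edgeR, -3.02 without the first-series ETP libraries and -2.82 to -2.13 leaving out 1 library. There Il12rb1 was 0.62 without the kit term, and Il12rb2 was 2.39 with NEBNext alone, 0.98 without the first-series ETP libraries and 1.01 to 2.38 leaving out 1 library. In Bcl11b- DN2a against total ETP, Il12a was -3.12 with the smaller pseudocount, -2.08 without the kit term and -3.16 with edgeR, and Il12rb1 was 0.15 without the kit term.

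With 2 UMIs needed for a positive cell, the Il2ra+ over Il2ra- ratio of Il12a was 0.152 and 0.142 in droplet libraries 1 and 2. In library 2 the Bcl11b+ over Bcl11b- ratio of Il12a was 0.793, the Flt3- over Flt3+ ratio of Il12a was 0.498 and that of Il12rb2 turned round to 0.806. Depth limits Il12rb1 most, with 220 and 298 UMIs in the kept droplet cells.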
